A study of Rattus norvegicus with 48 samples.

Results

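Liver RNA of rats on the control diet was compared between week 12 and week 8 of feeding, in 16 of the 48 animals of the study. The members are the 8 livers of the choline-supplemented L-amino acid-defined diet (CSAA) at week 8 and the 8 livers of CSAA at week 12, chosen by the diet and week in the sample labels. All animals were male Wistar rats (RjHan:WI), obtained at 6 weeks of age and housed in pairs, and each liver was taken from a different animal. The other 32 livers belong to CSAA at week 4 and to the choline-deficient diet with 1% cholesterol (CDAA, spelled CDDA Cholesterol 1pc in the labels) at weeks 4, 8 and 12, with 8 animals each. CDAA held 0.17% methionine and CSAA 0.4%, and the fat and carbohydrate contents of the diets also differed. The comparison asks how far the control liver itself changed late in the study. Since all animals were of like age at the start, age and time on the diet cannot be told apart.

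The liver makes most plasma proteins, stores and exports lipids, synthesizes bile acids and detoxifies drugs and steroids. Hepatocytes hold most of its RNA, and transcripts of a small number of secreted proteins take a large part of it. Choline is needed for phosphatidylcholine and thus for the export of fat in lipoproteins, and the CSAA diet supplies it, which is why it serves as the control of the choline-deficient diet. Livers of growing male rats change with age and sexual maturation, feeding state and time of day. Among the shortest polyadenylated transcripts are those of ribosomal proteins, small subunits of the respiratory chain and small secreted proteins, whereas many receptors, transporters and matrix proteins have long ones. Genes are listed in the tables by Ensembl identifier without a name, so that liver markers and pathways were not examined and genes are described here by level, length and behaviour in the other groups. In whole liver, fewer cells of a type and less RNA per cell cannot be told apart.

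The authors counted reads per gene, with 15581713 to 20567511 reads on genes per liver at week 8 and 15267445 to 21082594 at week 12. The means did not differ beyond the spread between animals (8 against 8, two-sided exact permutation test, p = 0.0985, adjusted p = 0.197 over 4 measures). The numbers of genes with reads were 15178 ± 347 and 15155 ± 196 (SD, n = 8; exact permutation test, p = 0.874, adjusted p = 0.874). The most abundant gene took 11.5 ± 0.992% and 12.3 ± 1.22% of the reads (SD, n = 8; exact permutation test, p = 0.161, adjusted p = 0.214). The TMM factor, which scales a library for its composition, was 0.848 ± 0.0730 at week 8 and 0.777 ± 0.0441 at week 12 (SD, n = 8), a difference that did not hold after adjustment (exact permutation test, p = 0.0225, adjusted p = 0.0901). Animal 504 of week 8 and animal 908 of week 12 stood apart from their groups. Their mean correlations with the other 7 animals of the group were 0.965 and 0.961, below all other animals of these weeks, and they had the highest numbers of genes with reads in their groups, 15766 and 15504. The counts of changed genes and the slope difference are therefore also given without both. The paper removed sample 906_CSAA from its proteomics as an outlier. Animal 906 of week 12 was kept here, with a mean correlation of 0.971 with its group.

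In the comparison of week 12 with week 8, 355 of 12756 expressed genes changed, which is 2.78% of the genes tested. Of these, 91 genes (0.713%) were higher and 264 genes (2.07%) were lower at week 12. Expressed genes had a minimum of 1 in counts per 1000000 reads (CPM) in 5 or more animals of any one group. Changed genes had log2 fold changes of 1 or more, or of -1 or less, and passed edgeR's quasi-likelihood test at 0.01 after Benjamini-Hochberg adjustment over all 12756 genes. Most changes were close to the fold threshold. The median log2 fold change was 1.17 for the genes that rose and -1.22 for the genes that fell, and 80 of the 91 and 206 of the 264 had an absolute value below 1.5. At least 2 on the log2 scale was reached by 4 genes that rose, and -2 or lower by 8 genes that fell. When the test asked whether a change was larger than 1 on the log2 scale, and not only different from 0, 27 genes passed, 3 higher and 24 lower.

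Smaller changes were more frequent and had a different balance. With the adjusted p alone, 3864 genes (30.3%) passed, of which 2249 were higher and 1615 lower at week 12. The median log2 fold change over all tested genes was 0.06. It was -0.002 with RLE normalization, another scaling of the libraries, and -0.004 with the 16 CSAA animals fitted alone. The balance by the adjusted p alone was not examined under another scaling. CPM values of the 8 animals of week 8 and the 8 of week 12 did not overlap in 1099 genes, 8.62% of those tested, with 535 higher and 564 lower. Without animals 504 and 908, 3915 genes passed with the adjusted p alone (2061 higher, 1854 lower). No overlap between the remaining 7 animals of each week was found for 1890 of 12756 genes (947 higher, 943 lower). Leaving out any animals can only raise the count without overlap, so it cannot be set against the 1099. Of the changed genes, 37 of the 91 that rose and 175 of the 264 that fell had no overlap between the weeks.

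The balance of higher and lower genes depended on the scaling. With the library size alone in place of TMM factors, 50 genes were higher and 387 lower. RLE normalization gave 66 higher and 320 lower, and TMM factors with the 16 CSAA animals fitted alone gave 59 higher and 292 lower. The deposited RPKM values were tested with limma and without TMM factors, so that the test differed as well as the scaling. They gave 33 higher and 388 lower with a pseudocount of 0.1, and 13 higher and 263 lower with a pseudocount of 1. Division by a gene length that is the same in all animals cancels in a fold change. RPKM values thus do not remove a trend of the fold change with gene length. Without animals 504 and 908, 103 genes were higher and 383 lower.

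**Figure D1:**
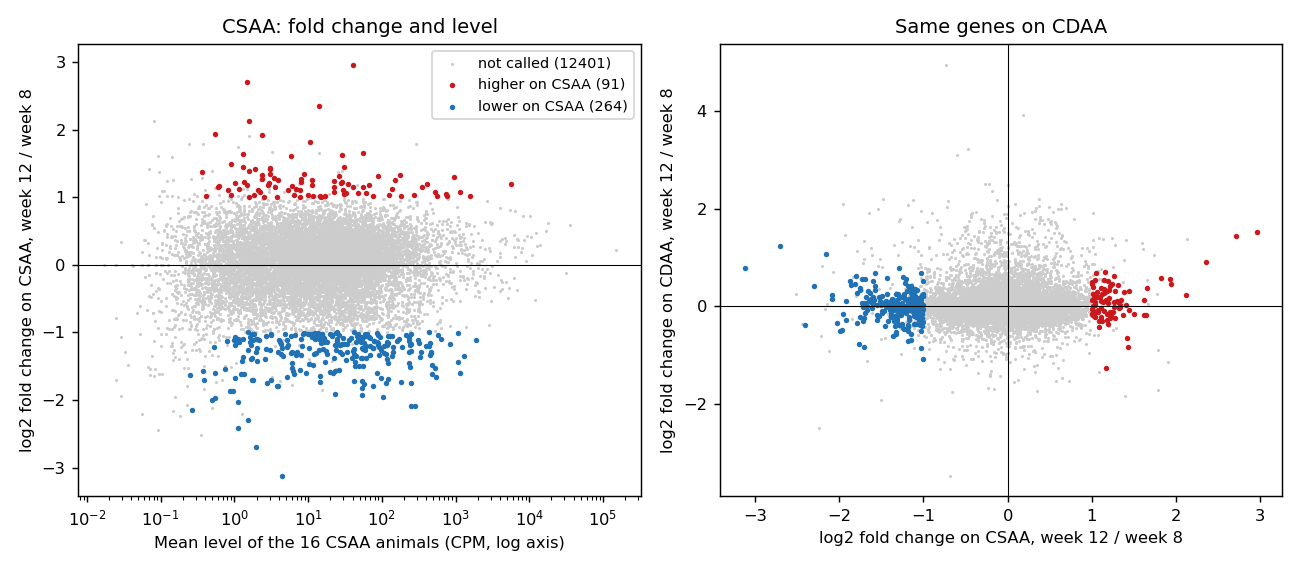
Each point is 1 of 12756 tested genes. The left plot gives the log2 fold change of week 12 against week 8 on CSAA over the mean level of the 16 CSAA animals (CPM, log axis), and the right plot sets the log2 fold change on CDAA against that on CSAA, with the 91 genes that rose on CSAA in red and the 264 that fell in blue. Changed genes are found from low to high levels, and on CDAA the coloured genes lie on both sides of 0.

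The strongest rise among genes without overlap and with at least 1 CPM in the higher week was found for ENSRNOG00000021027. At week 8 its level was 1.67 CPM in the lowest animal, 6.23 CPM at the median and 24.96 CPM in the highest, and at week 12 it was 41.2, 68.8 and 105 CPM. Every liver of week 12 thus lay above every liver of week 8, although the values of week 8 alone were spread over more than a factor of 10. The log2 fold change was 2.96 with an SE of 0.429 (adjusted p = 2.28e-07). The highest value of week 8, 24.96 CPM, belongs to animal 504, and the lowest of week 12, 41.2 CPM, to animal 905.

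ENSRNOG00000006663 rose from 1.499, 4.15 and 9.87 CPM (lowest, median and highest animal) at week 8 to 10.8, 16.6 and 23.1 CPM at week 12. Its log2 fold change was 1.82 with an SE of 0.239 (adjusted p = 2.92e-08), and it did not pass when tested against a log2 fold change of 1 (adjusted p = 0.0372). The gap between the weeks was narrow here, between animal 501 of week 8 and animal 907 of week 12.

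The largest fall among such genes was that of ENSRNOG00000033152, a gene of low level. It had 1.87, 2.45 and 3.63 CPM at week 8 and 0.233, 0.512 and 0.840 CPM at week 12, from 23 to 53 reads per animal at week 8 and from 3 to 14 at week 12. The log2 fold change was -2.30 with an SE of 0.263 (adjusted p = 1.28e-09). All 8 livers of week 12 were below 1 CPM, and none of week 8 was.

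ENSRNOG00000019106 fell at a much higher level, from 277, 389 and 540 CPM at week 8 to 60.5, 91.5 and 134 CPM at week 12. Its log2 fold change was -2.09 with an SE of 0.183 (adjusted p = 2.81e-12). The lowest liver of week 8 was that of animal 504, and it still had more than the highest liver of week 12, that of animal 905. With a length of 405 bases, ENSRNOG00000019106 is among the shortest genes tested, and ENSRNOG00000033152 has 546 bases, whereas the genes that rose, ENSRNOG00000021027 and ENSRNOG00000006663, have 1242 and 1318 bases.

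**Figure D2:**
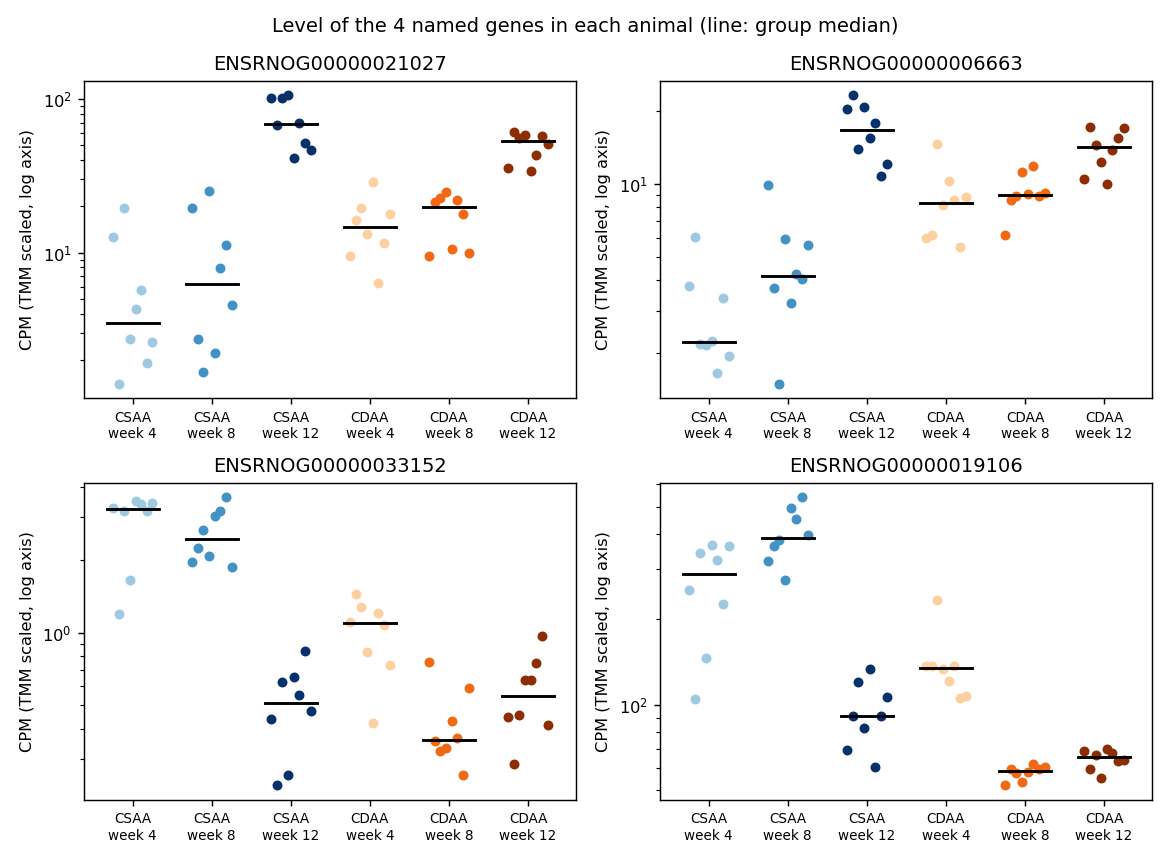
Levels of the 4 named genes in each of the 48 livers (CPM scaled with TMM factors, log axis), by diet and week, where each point is 1 animal and each line a group median. On CSAA, no animal of week 12 lies within the range of week 8 for any of the 4 genes, which results from the choice of the genes. On CDAA, which had no part in that choice, the livers of weeks 8 and 12 overlap for all of them except ENSRNOG00000021027.

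In the other groups, ENSRNOG00000021027 had a median of 3.50 CPM on CSAA at week 4, and on CDAA its median was 14.7, 19.7 and 53.4 CPM at weeks 4, 8 and 12. On CDAA as well, every liver of week 12 (34.2 to 61.0 CPM) lay above every liver of week 8 (9.47 to 24.7 CPM). Its log2 fold change from week 8 to week 12 on CDAA was 1.52 (adjusted p = 0.0131), which missed the threshold, and so did the difference between the steps of the diets, with -1.44 (interaction, adjusted p = 0.0461). For ENSRNOG00000006663 the step on CDAA was 0.59 (adjusted p = 0.111) and differed from that on CSAA by -1.23 (interaction, adjusted p = 0.00268). The named genes were chosen for a large step on CSAA, which is part of the interaction, so these differences are given as a description. Both genes that fell on CSAA were already low on CDAA at week 8, with medians of 0.361 CPM for ENSRNOG00000033152 and 58.6 CPM for ENSRNOG00000019106. Their steps on CDAA were 0.42 (adjusted p = 0.399) and 0.16 (adjusted p = 0.673) on the log2 scale.

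The change between the weeks followed gene length. Length is used here as the deposited values imply it, from the ratio of counts to RPKM. Genes under 500 bases had a median log2 fold change of -0.55 (271 genes) and genes of 500 to 1000 bases of -0.40 (1023 genes). The median then rose to -0.07 from 1000 to 2000 bases (4116 genes), 0.14 from 2000 to 4000 (5031 genes), 0.22 from 4000 to 8000 (2074 genes) and 0.25 above 8000 bases (241 genes). Below 1000 bases, 81.1% of the genes had a negative fold change, and above 4000 bases it was 23.1%.

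The changed genes were unevenly spread over these lengths. Of the genes that fell, 149 of 264 (56.4%) were shorter than 1000 bases, as are 10.1% of all genes tested, and 1 of 264 was longer than 4000 bases. Among the genes that rose, 33 of 91 (36.3%) were longer than 4000 bases, compared with 18.1% of the genes tested, and 4 were shorter than 1000. The median lengths were 842 bases for the genes that fell, 2611 for those that rose and 2255 for all genes tested. In the shortest class, 21.0% of the genes were called lower (57 of 271), whereas 4 of the 241 genes above 8000 bases were called, all of them higher.

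**Figure D3:**
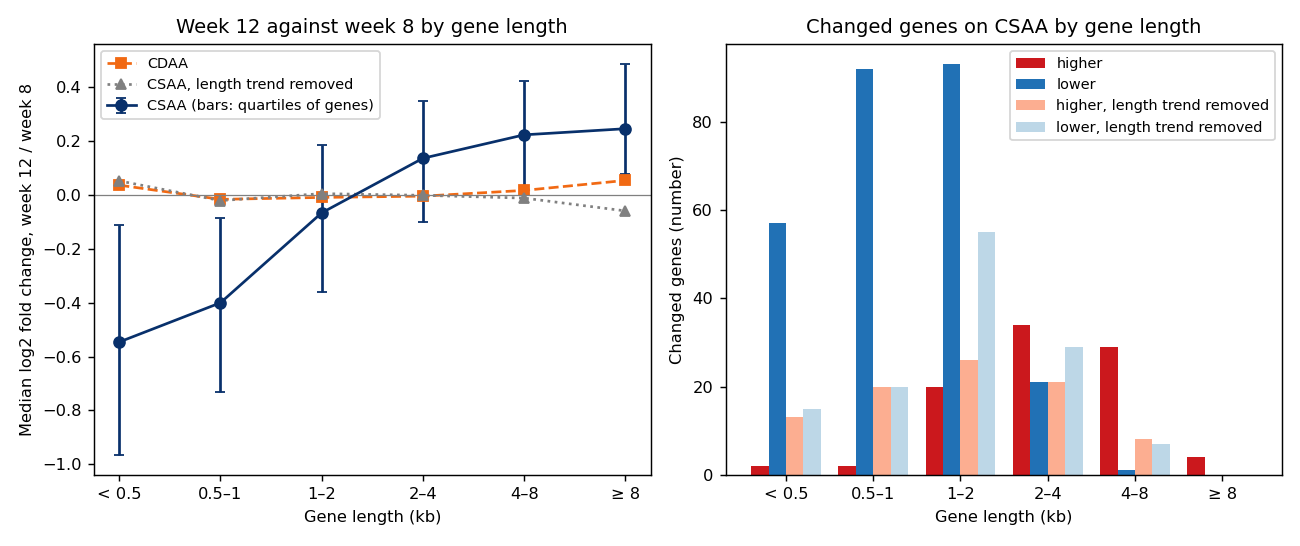
The left plot gives the median log2 fold change of week 12 against week 8 in 6 classes of gene length (kb), for CSAA with the quartiles of the genes as bars, for CDAA, and for CSAA after the length trend was removed. The right plot gives the numbers of genes changed on CSAA in each class, before and after removal. The CSAA median rises from -0.55 to 0.25 with length, and the CDAA medians stay between -0.02 and 0.05.

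The trend was found in all 3 classes of expression level. Among genes with a mean of under 10 CPM in the 16 livers, the median log2 fold change was -0.33 below 1000 bases and 0.13 above 4000 bases. From 10 to 100 CPM it was -0.49 and 0.26, and from 100 CPM it was -0.58 and 0.35. Of 197 genes below 1000 bases with 100 CPM or more, 41 (20.8%) fell and 1 rose.

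The trend was also measured for each liver. For every animal, the difference of log2 CPM from the mean of the 16 livers was regressed on log2 gene length, and the slope tells by how much long genes are favoured. The slopes of week 8 were -0.159, -0.148, -0.122, -0.122, -0.102, -0.0838 and -0.0824 for the animals other than 504, and 0.0272 for animal 504. Those of week 12 were -0.0501 for animal 905, 0.0268 for animal 903, and from 0.0619 to 0.214 for the other 6. All livers of week 12 were thus above the 7 of week 8, and animal 504 lay among them, above 903 and 905. The mean slope was -0.0990 ± 0.0579 at week 8 and 0.0990 ± 0.0855 at week 12 (SD, n = 8), a difference of 0.198 (two-sided exact permutation test over 12870 splits of 16 animals, p = 0.000466, where 0.000155 is the smallest p). Without animals 504 and 908 the difference was 0.217 (p = 0.000583 in the exact permutation test, which is the lowest value possible for 7 animals against 7). All livers of week 12 lay above the other 7 of week 8, so leaving out animal 504 fixed this p in advance. It is thus no check of the difference. The means of -0.0990 and 0.0990 are of equal size and opposite sign because the slopes are centred on the 16 livers.

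The share of reads on short genes was smaller at week 12. Genes under 1000 bases took 14.02% of the reads in the lowest, 15.8% in the median and 16.98% in the highest liver of week 8, and 10.2%, 12.0% and 13.0% at week 12. There was no overlap between the weeks in this measure, animal 504 included. Genes above 4000 bases took 9.48%, 10.4% and 11.7% of the reads at week 8 and 10.7%, 12.9% and 15.9% at week 12, with overlap.

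Other groups had other slopes on the same scale. CSAA livers at week 4 ranged from -0.155 to 0.0626 with a median of -0.108, close to the median of -0.112 at week 8. On CDAA the slopes lay between -0.151 and 0.101 in the livers of week 4. The value of -0.151 belongs to animal 303, whose mean correlation with its group, 0.950, was the lowest of the 48 livers. The other CDAA livers of week 4 lay between 0.0209 and 0.101. Slopes on CDAA were 0.285 to 0.340 at week 8 and 0.292 to 0.376 at week 12, higher than in any CSAA liver. From week 8 to week 12 the mean slope on CDAA differed by 0.0191 (two-sided exact permutation test, n = 8 each, p = 0.159). Whether this step differs from that on CSAA was not tested. Animals were sequenced in pools that the labels do not assign, so that the part of the pools in the slopes was not tested.

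**Figure D4:**
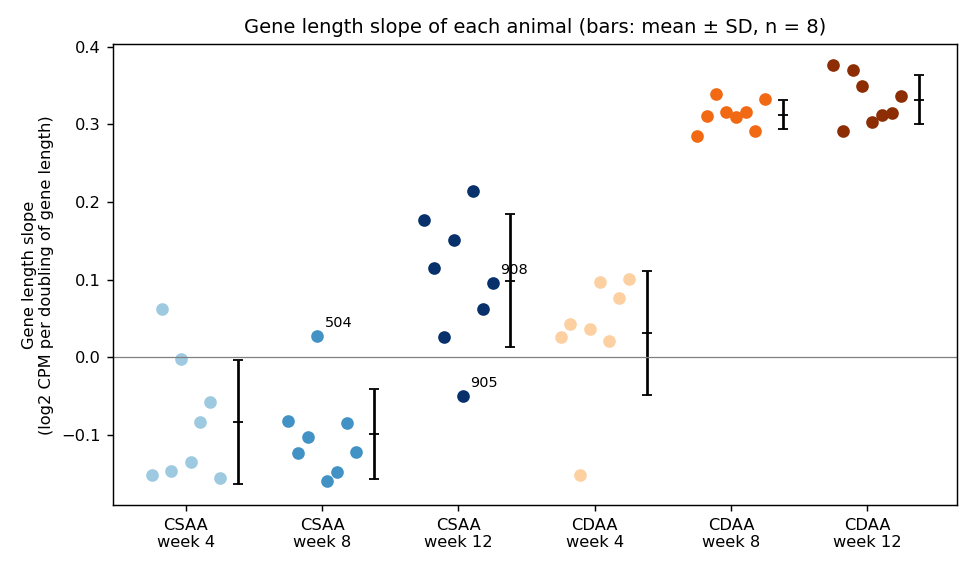
Slope of log2 CPM on log2 gene length for each of the 48 livers, relative to the mean of the 16 CSAA livers of weeks 8 and 12, with mean ± SD (n = 8) beside each group. The 8 livers of CSAA at week 12 lie above those of week 8 except for animal 504, and all livers of CDAA at weeks 8 and 12 lie between 0.285 and 0.376.

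After the length trend was removed from each library, 214 genes (1.68%) changed, 88 higher and 126 lower. The share of rises was then 41.1% compared with 25.6% before. Of the genes called without this step, 52 of 91 that rose and 110 of 264 that fell were still called, and all 355 had the same direction. A change of direction would have needed a shift of more than 1 on the log2 scale, since the 355 were chosen at that size. In genes under 500 bases the median moved from -0.55 to 0.05. Added were 36 genes that rose and 16 that fell. Below 1000 bases, 33 genes were then higher and 35 lower, in place of 4 and 149. The genes that were lower after removal had a median length of 1471 bases and those that were higher of 1310. All 4 named genes passed, with log2 fold changes of 3.12 for ENSRNOG00000021027, 1.97 for ENSRNOG00000006663, -1.78 for ENSRNOG00000033152 and -1.504 for ENSRNOG00000019106. Without animals 504 and 908, the removal left 116 genes higher and 198 lower.

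Changed genes were found at all levels. The genes that fell had a median level of 24.01 CPM and those that rose of 10.0 CPM, compared with 13.4 CPM for all genes tested. Among the 151 genes with at least 1000 CPM, 3 rose and 5 fell. From 100 to 1000 CPM, 53 of 1248 genes fell (4.25%) and 13 rose (1.04%), whereas from 10 to 100 CPM 118 of 5784 fell (2.04%) and 30 rose (0.519%). From 1 to 10 CPM 75 of 4259 genes fell (1.76%) and 37 rose (0.869%), and below 1 CPM 13 of 1314 fell (0.989%) and 8 rose (0.609%).

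Single animals were not equally close to the other week. Animal 504 had the lowest value of week 8 in 145 of the 264 genes that fell (54.9%), and among the livers of week 12 animal 905 had the highest value in 103 of them (39.02%) and animal 908 in 54 (20.5%). In the 91 genes that rose, animals 504, 508 and 501 had the highest value of week 8 in 25, 22 and 18 genes, and animals 908 and 906 the lowest of week 12 in 27 and 25. The calls were largely kept without animals 504 and 908, with 82 of 91 rises and 259 of 264 falls. With each of the 16 animals left out in turn, 48 rises (52.7%) and 196 falls (74.2%) were called every time. Called by limma-voom and DESeq2 as well were 66 rises and 245 falls. Under all of these, the removal of the length trend included, 37 rises and 88 falls were called.

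The CSAA livers of week 4, whose levels do not enter the fold change, were mostly closer to week 8. The mean level of week 4 was nearer to week 8 than to week 12 in 82 of the 91 genes that rose (90.1%) and in 242 of the 264 that fell (91.7%), compared with 67.8% of all genes tested. Relative to the mean of week 8, the median log2 level over the genes that fell ranged in the livers of week 4 from -1.03 to 0.04, with a median of -0.16. In the livers of week 12, where the genes were chosen, it ranged from -1.48 to -0.96. Over the genes that rose, livers of week 4 had values of -0.09 to 0.48 and livers of week 12 of 0.84 to 1.36. The lowest value of week 4, -1.03 over the genes that fell, came from animal 102, which also had the highest slope on gene length in its group, 0.0626. Animal 104 had the next lowest value, -0.75, and the next highest slope, -0.0023. The part of gene length in the closeness of week 4 to week 8 was not tested.

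On CDAA, whose animals are not shared with this comparison, the same genes had fold changes of both signs from week 8 to week 12. There, 183 genes changed (1.43%), 170 higher (1.33%) and 13 lower (0.102%). Of the 264 genes that fell on CSAA, 1 was called on CDAA, as lower, and 126 had a negative and 138 a positive fold change. Of the 91 genes that rose on CSAA, 0 were called by edgeR on CDAA, 2 by limma-voom and 1 by DESeq2, and 53 had a positive and 38 a negative fold change. Over all 12756 genes, limma-voom called 252 and DESeq2 199 on CDAA, and each called 1 of the 264 genes that fell on CSAA. An unadjusted p under 0.05 in edgeR was found for 19 of the 91 (20.9%) and 32 of the 264 (12.1%), compared with 19.9% of all genes tested. The median log2 fold changes on CDAA were 0.02 for the genes that fell, 0.09 for those that rose and -0.002 for all genes tested. The genes that fell on CSAA were lower on CDAA at both weeks than on CSAA at week 8, the group in which they were high by choice. They were also short, with a median of 842 bases, and slopes on gene length were higher in these CDAA livers than in any CSAA liver. The part of gene length in these levels was not tested. Relative to CSAA at week 8, their median log2 level ranged from -1.74 to -1.62 in the CDAA livers of week 8 and from -1.79 to -1.55 in those of week 12.

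The step on CDAA minus that on CSAA was tested directly as an interaction in the same fit, and 511 genes (4.01%) differed, 372 with a higher and 139 with a lower value on CDAA. Among the genes that fell on CSAA, 196 of 264 were in this list, and 51 of 91 of those that rose. Since the step on CSAA is part of the interaction, genes chosen for a large step there are favoured, and the counts are given as a description. With the length trend removed, 341 genes differed, among them 89 of the 264 and 33 of the 91. Without animals 504 and 908, 654 genes differed.

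**Figure D5:**
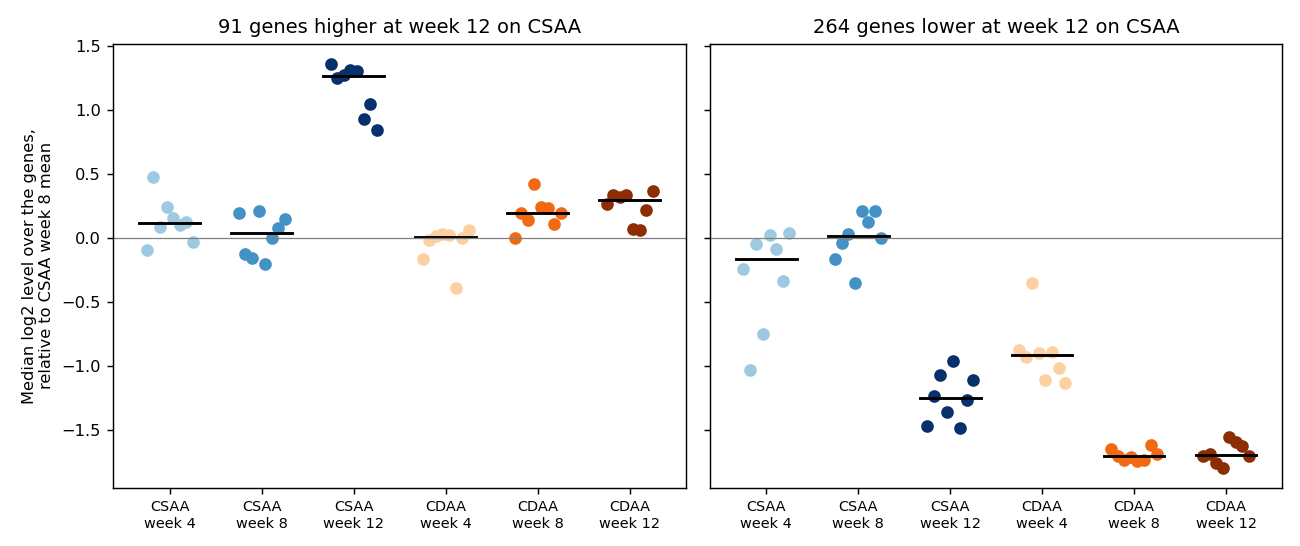
Median log2 level over the 91 genes that rose (left) and the 264 genes that fell (right) at week 12 on CSAA, relative to the mean of CSAA at week 8, where each point is 1 of the 48 livers and each line a group median. The distance of CSAA week 12 from week 8 results from the choice of the genes, and the level of CSAA at week 8, to which all other groups are set, entered that choice. CDAA livers of weeks 8 and 12 lie between -1.79 and -1.55 for the genes that fell and between 0.002 and 0.42 for those that rose.

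The diet effect at week 4 rests on 16 other animals, with animal 303 included, and was not tested without that animal. In this comparison, 65 of the 264 genes that fell late on CSAA were lower on CDAA than on CSAA (24.6%, compared with 4.27% of all genes tested), and 24 were higher (9.09%, compared with 15.7%). Their median log2 fold change between the diets at week 4 was -0.68, while it was -0.02 for all genes. Short genes were lower on CDAA as well, with a median of -0.29 below 1000 bases. The median also fell with the level on CSAA, from 1.35 below 1 CPM and 0.17 from 1 to 10 CPM to -0.12 from 10 to 100 CPM. It was -0.38 from 100 to 1000 CPM and -0.67 from 1000 CPM. The 264 genes had a higher median level than all genes, 24.01 against 13.4 CPM, and the shares were not matched for level. After removal of the length trend, 38 of the 264 genes (14.4%) were lower on CDAA at week 4, compared with 4.31% of all genes. Of the 91 genes that rose late on CSAA, 13 were lower on CDAA at week 4 (14.3%, compared with 4.27% of all genes tested). After removal of the length trend 17 were lower (18.7%, compared with 4.31%) and 10 higher (11.0%, compared with 15.1%). Before removal, 11 of the 91 were higher (12.1%, compared with 15.7%), and their median log2 fold change over all 91 was -0.14. ENSRNOG00000021027 and ENSRNOG00000006663 were among the 11, with 1.24 (adjusted p = 0.00995) and 1.53 on the log2 scale.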

How the data were processed

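Single-end reads of 85 bases from polyA RNA were mapped by the authors with STAR (Rnor_6.0, Ensembl annotation). The deposited counts are the raw featureCounts values per gene. The deposited RPKM values are divided by gene length and depth and hold 3 decimals. All 48 columns of each table were assigned by their titles. For the tests, edgeR 4.0.16 (R 4.3.3) was fitted to the counts of all 48 animals with TMM factors and a group mean for each of the 6 groups, followed by quasi-likelihood tests and Benjamini-Hochberg adjustment. Log2 CPM for the slopes used a prior count of 2. Gene length was taken as counts divided by RPKM and reads, and in 1179 of 8060 genes this ratio varied by more than 5% between animals. The length trend was removed per library by a lowess curve with a span of 0.3. Alternatives were limma 3.58.1 (voom on counts, and log2 RPKM), DESeq2 1.42.0, other scalings, filters and samples, and leaving out each animal. For slopes and library measures, exact permutation tests (two-sided) were run in Python 3.11.15. The scripts were tested on simulated data before use. Between animals within CSAA week 8 and within CSAA week 12, chi-square values per gene were at least 13.5, where sampling noise gives about 1, and all 16 were counted as separate samples. Other pairs were not compared. Genes were to be named by the largest rise or fall among called genes without overlap between the weeks and at least 1 CPM in the higher group. The tables pair no identifier with a name, so the rule was applied without the symbol it asks for and was cut to 2 genes each way. The gene lists, marker lists and sequences were thus not used here. The genes, lists and alternatives were chosen with earlier results of these data known.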

Additional observations from a re-analysis of the deposited data

Results flagged for a closer look

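Animal 504 of CSAA at week 8 lay apart from the other 7 livers of its group in 3 measures. Its TMM factor was 1.01, with the next at 0.876, its slope on gene length was 0.0272, with the next at -0.0824, and its mean correlation with the group was 0.965, with the next at 0.976. Animal 908 of CSAA at week 12 had a mean correlation of 0.961 with its group, with the next at 0.971. These 4 values exceeded Dixon's limit for 8 animals, among 22 groups of values examined, of which chance gives about 1.1. The cause was not tested.

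The step from week 8 to week 12 differed between the diets in 511 genes, as tested by an interaction term. For the named genes, the step on CDAA minus that on CSAA was -1.23 on the log2 scale for ENSRNOG00000006663, 2.73 for ENSRNOG00000033152 and 2.25 for ENSRNOG00000019106. The named genes were chosen for a large step on CSAA, which is part of this difference, so their values are given as a description.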

How the results depend on the processing

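The count of 355 changed genes fell to 27 when tested against a log2 fold change of 1 and to 214 (88 higher, 126 lower) with the length trend removed, and rose to 3864 with the adjusted p alone. With each animal left out it ranged from 317 to 508, the highest without animal 908 of week 12, and without animals 504 and 908 it was 486. DESeq2 gave 410 and limma-voom 352, and the 16 CSAA animals alone 351 (59 higher, 292 lower). With the library size alone it was 437 (50 higher), and the median of all genes moved from 0.06 to -0.07. The RPKM values gave 421 (33 higher) and 276 (13 higher), and no filter on low counts 418. Thinning all libraries to the lowest depth, chosen after seeing the data, gave 359. The slope difference lay between 0.182 and 0.219 with each animal left out, the lowest without animal 906 of week 12. It was 0.246 for genes with a constant ratio of counts to RPKM, also chosen after seeing the data. The interaction gave 460 genes with limma-voom and 341 with the length trend removed, and 654 without animals 504 and 908, the last chosen after seeing the data. With each animal left out, the difference of reads on genes ranged from 1.40 to 2.24 (in units of 1000000 reads), that of the top gene's share from 0.550 to 1.11 percentage points, that of the TMM factor from -0.0832 to -0.0484 and that of the genes with reads from -79.4 to 61.1. The named genes kept their direction under all 32 alternatives each. They were chosen for large steps without overlap between the weeks, which leaving out animals cannot reverse. ENSRNOG00000006663 was no longer called when tested against a log2 fold change of 1 (adjusted p = 0.0372). No paired analysis was possible because the weeks hold different animals, and the animal numbers are not shared between groups. Pools and cages are not assigned in the labels, so no batch was fitted.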
